A study of Mus musculus with 2 samples.

Results

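The strongest distal shared regions of newborn mouse stomach chromatin are the sites far from any annotated transcript start with the highest peak signal in both libraries of the study. They were chosen by their signal: autosomal peaks of replicate 1 and replicate 2 that overlapped by at least 1 bp were merged, the peak signal had to reach the 95th percentile of each replicate's own list, and the centre had to lie more than 5 kb from every transcript start of GENCODE M21 on build mm10. This left 603 regions of 103266 autosomal shared regions, or 0.584%. Of all autosomal shared regions 5.57% were strong in both replicates, and of the 49506 distal ones 1.22% were. Because the signal set the membership, all signal values are given as a description, and the features compared below are sequence, annotation and position beyond the 5 kb limit, which the choice did not use. The other 48903 distal shared regions are the comparison throughout.

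DNase-seq maps accessible chromatin by sequencing the ends of fragments that the enzyme DNase I releases. The samples were stomach tissue of the mouse strain B6NCrl at postnatal day 0, in 1 group with 2 replicates of 1 library each. No condition, treatment or genotype was compared. Both libraries are labelled with the same donor, the sex was not collected, and the labels do not say whether each replicate is an animal or a pool, so the replicates may differ only technically. The lists held 139654 peaks for replicate 1 and 153178 for replicate 2. The label of replicate 2 names a pair of instruments and that of replicate 1 names none. The stomach is a mixed tissue of epithelium, smooth muscle, mesenchyme, nerve, vessel and blood cells, so a region open in few cells and one open weakly in many cannot be told apart.

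Accessible sites away from transcript starts are commonly enhancers, to which transcription factors bind to raise the transcription of a gene nearby, or sites of CTCF, a zinc finger protein that stops loop extrusion and helps to fold chromosomes into domains. Enhancers of a cell type carry the binding sites of its regulators, such as HNF4, FOXA and GATA factors in endodermal epithelium. AP-1, the dimer of Fos and Jun proteins, binds enhancers of many cell types and is raised within minutes by growth factors, stress or injury. NFY binds CCAAT boxes, which are typical of promoters.

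The sequences of 11 regions are printed because they show, base by base, where searched strings lie in some of the strongest distal sites. Only exact matches were counted, so a region without a match may still hold a variant of a site. The region near Ier5l, for example, holds ccaat without the full NFY string CCAATCA. They are the plus strand of the GRCm38.p6 genome (mm10), 5′ to 3′, and capitals mark the match that each is shown for, on either strand. The highest region of all and the region near Ier5l have no match to any of the 36 strings searched, so they are in lower case throughout. In the region near Mrps27 the NFY string appears as its reverse complement in 2 places. The regions near 9130204K15Rik and Rap1gds1 also hold an AP-1 match in lower case beside the HNF4 match in capitals. The region near 1600002D24Rik holds a FOXA match in lower case. Further searched strings, such as GATA near Bhlhe40 and the E-box CAGCTG near Zfp869, are in lower case too, and not all are named.
no match, near Fos, chr12:85455336-85455485, plus strand: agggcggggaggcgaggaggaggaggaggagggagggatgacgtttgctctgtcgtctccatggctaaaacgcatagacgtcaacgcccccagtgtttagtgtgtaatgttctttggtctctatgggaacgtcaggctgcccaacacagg
AP-1, near Zfp869, chr8:69716956-69717105, plus strand: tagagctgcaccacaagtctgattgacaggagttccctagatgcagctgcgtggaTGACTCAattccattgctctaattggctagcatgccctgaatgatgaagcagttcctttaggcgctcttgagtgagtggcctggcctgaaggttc
AP-1, near Bhlhe40, chr6:108704876-108705025, plus strand: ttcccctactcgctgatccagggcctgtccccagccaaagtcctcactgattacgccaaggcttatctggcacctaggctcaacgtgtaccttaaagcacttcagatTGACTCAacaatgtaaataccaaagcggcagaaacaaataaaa
HNF4, near 9130204K15Rik, chr11:79790236-79790405, plus strand: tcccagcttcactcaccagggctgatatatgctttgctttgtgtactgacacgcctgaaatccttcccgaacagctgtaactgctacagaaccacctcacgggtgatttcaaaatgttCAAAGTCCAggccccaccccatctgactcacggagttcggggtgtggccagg
HNF4, near Rap1gds1, chr3:139037176-139037325, plus strand: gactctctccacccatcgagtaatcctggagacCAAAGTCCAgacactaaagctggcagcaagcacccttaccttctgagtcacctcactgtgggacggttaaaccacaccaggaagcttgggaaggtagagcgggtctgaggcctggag
FOXA, near Nr4a1, chr15:101246376-101246525, plus strand: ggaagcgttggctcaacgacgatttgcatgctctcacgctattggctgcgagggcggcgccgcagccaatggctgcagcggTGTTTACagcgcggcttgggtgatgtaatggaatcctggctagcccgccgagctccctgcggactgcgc
GATA, near Zfpm1, chr8:122294356-122294505, plus strand: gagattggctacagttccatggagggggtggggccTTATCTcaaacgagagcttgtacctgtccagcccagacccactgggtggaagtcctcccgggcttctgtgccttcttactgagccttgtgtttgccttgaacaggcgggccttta
CTCF, near 1600002D24Rik, chr16:95855356-95855505, plus strand: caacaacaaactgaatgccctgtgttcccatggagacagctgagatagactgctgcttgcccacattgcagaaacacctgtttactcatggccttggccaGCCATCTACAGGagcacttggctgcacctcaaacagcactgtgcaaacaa
CTCF, near Pim3, chr15:88851836-88852025, plus strand: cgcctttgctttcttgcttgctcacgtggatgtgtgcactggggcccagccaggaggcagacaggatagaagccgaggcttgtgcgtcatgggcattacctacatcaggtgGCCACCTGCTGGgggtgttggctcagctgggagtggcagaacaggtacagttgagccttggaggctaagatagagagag
NFY, near Mrps27, chr13:99353276-99353425, plus strand: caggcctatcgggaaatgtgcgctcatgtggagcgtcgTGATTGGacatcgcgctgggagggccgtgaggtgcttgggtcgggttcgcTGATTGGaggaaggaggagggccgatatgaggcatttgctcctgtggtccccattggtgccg
no match, near Ier5l, chr2:30464096-30464265, plus strand: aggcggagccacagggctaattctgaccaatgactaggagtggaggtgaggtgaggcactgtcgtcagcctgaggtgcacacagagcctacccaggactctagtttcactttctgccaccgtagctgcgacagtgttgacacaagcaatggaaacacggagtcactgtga

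The 603 regions filled the upper corner of the signal range of distal chromatin. In replicate 1 their signal ran from 98 to 131 with a median of 106, against a median of 46 in the other distal shared regions. In replicate 2 it ran from 106 to 133 with a median of 112, against 57. The signal is the authors' own value, with no stated unit or scaling, so the 2 libraries are compared by rank only. It was never larger than the peak width, which is 150 bp for all but 1 peak of each list, and whether it counts positions or is limited by the width is not stated in the sources used here. The value 150 occurred only at 10 and 9 mitochondrial peaks, which are no part of the 603. Across the 603 regions Spearman's rho between the replicates was 0.424, a description over regions that share their libraries and were cut at a threshold in each. Only 23 regions were in the top 1% of both lists.

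**Figure D1:**
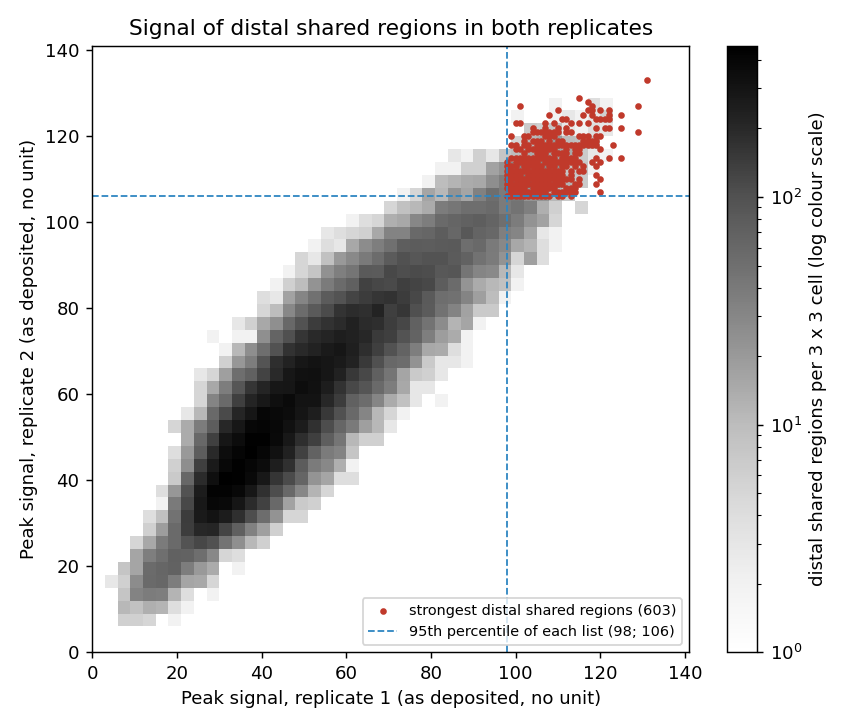
Peak signal of all 49506 distal shared regions in replicate 1 (x axis) and replicate 2 (y axis), as deposited and without a unit. Grey cells count regions on a log colour scale, red points are the 603 regions chosen, and dashed lines are the thresholds of 98 and 106 that chose them. The grey cloud runs along the diagonal, with most cells above it, and the red points form its upper end.

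The threshold of each library left out regions that passed in the other. A further 406 distal shared regions passed in replicate 1 only, with a median of 100 in replicate 2, and 304 passed in replicate 2 only, with a median of 93 in replicate 1. Of 1011 strong distal peaks in replicate 1 only 2 lacked a partner in replicate 2, and of 908 in replicate 2 only 1 lacked a partner in replicate 1. The 3 regions exactly on both thresholds, at 98 and 106, lay nearest to Rab14, Gm44352 and Arntl. Another 72 distal regions missed by at most 1 unit, such as one 17.4 kb from Adora1 with 97 and 106. On the distance side, the nearest included regions lay 5057, 5072 and 5091 bp from a start, and the nearest excluded ones of equal strength lay 4960, 4963 and 4980 bp away. All but 4 of the 603 regions (99.3%) were made of a single peak per replicate.

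The highest distal site of the newborn stomach lay 18.5 kb upstream of Fos, which encodes an AP-1 subunit and is among the first genes induced by a stimulus. Its signal was 131 in replicate 1, 133 in replicate 2, its GC content was 56.7%, and it lay inside the enhancer mm260 of the VISTA collection. The next lay 6.31 kb upstream of the GENCODE start of the zinc finger gene Zfp869, with 129 and 127, but only 37 bp from a RefSeq mRNA start of the same gene. The following pair, near Ier5l (125 and 125) and Trappc9 (122 and 126), held no searched string. Regions near Klrb1c (122 and 125), a receptor gene of natural killer cells, Cln6 (122 and 125) and Bsn (120 and 126) followed. The list of the 10 highest closed with sites near Kdm6b (122 and 124), an eraser of the H3K27 methyl mark, Klf3 (125 and 122) and Mrps27 (118 and 127). All 10 lay between percentiles 99.1 and 100 of both lists, and with 2 replicates their order is a description.

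The hotspots that surround the 603 regions were wide. Hotspots are the broader stretches of raised cleavage called from the same reads, so their width is a description of the chosen sites and not separate evidence. Their median width was 587 bp in replicate 1 and 604 bp in replicate 2, against 254 and 272 bp around the other distal shared regions. A hotspot of over 500 bp in both replicates surrounded 59.2% of the 603 regions and 6.88% of the others. Equally strong shared regions near starts had wider hotspots still, with medians of 861 and 928 bp and 81.1% over 500 bp in both replicates. Around the Fos site the hotspot measured 1088 and 1094 bp. The -log10 q value that the authors give each hotspot was at its limit of 100 for 600 and 603 of the 603 regions, against 43.5 and 51.6% of the others.

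The 603 regions lay closer to transcript starts than other distal sites, although both were held beyond 5 kb. Their median distance to the nearest transcript start was 12960 bp (quartiles 8230 and 22006 bp), against 16440 bp (9275 and 32292 bp) in the other distal shared regions. Only 5.47% lay more than 50 kb from any start, against 13.5%, a difference of -8.03 percentage points with a 95% Newcombe interval of -9.61 to -5.90. Such intervals cover counting error only, since regions are not replicates, and are not adjusted for the number of features compared. Introns held 46.9% of the 603 regions and 49.9% of the others, and intergenic sequence held 50.6 and 46.8%. Neither of these differences has an interval that excludes 0 (introns -6.98 to 1.02 points, intergenic -0.257 to 7.75 points). Exons held 2.49 and 3.24%. The 5 regions farthest from any start lay 106 to 130 kb away. A pair of them is 261 and 279 kb downstream of Sox9, a transcription factor gene of progenitor cells in endodermal epithelium, at chr11:113042816-113042985 (104 and 113) and chr11:113061096-113061245 (100 and 109). The remaining 3 were nearest to 4921511I17Rik (109 and 109), Fam3c (106 and 111) and Nsmce2 (106 and 112).

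Some of the sites that GENCODE M21 places far from a start were close to one in RefSeq. Of the 603 regions 61 (10.1%, 95% Wilson interval 7.96 to 12.8) lay within 1 kb of a RefSeq transcript start, against 3.48% of the other distal shared regions. Most of these starts, 40, belong to long non-coding RNAs, 14 to messenger RNAs and 5 to transfer RNAs. The messenger RNA starts include those of the protease gene Tmprss2, 40 bp from a region with 116 and 118, of Tmem14a (13 bp; 106 and 107) and of the hepatic lipase gene Lipc (227 bp; 113 and 112). For these 61 the word distal holds for one annotation and not for the other. Regions between 1 and 5 kb from a RefSeq start are not part of this count. CpG-dense regions, with a GC content of at least 50% and a CpG count of at least 0.6 of that expected, made up 12.9% of the 603 and 3.01% of the others, a difference of 9.93 points (7.48 to 12.8). Among equally strong shared regions near starts the share was 77.0%. Median GC content was 52.0% against 48.6%. Sequence that is over 50% repeat-masked was rare, in 4 regions (0.663%) against 5.99%.

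Records of tested enhancers overlapped the 603 regions more often than other distal sites. In the RefSeq annotation of the same genome, 18 regions (2.99%, 1.90 to 4.67) lay in an enhancer of the VISTA collection, which tests candidate fragments in transgenic mouse embryos, against 0.503% of the others. The 18 lay in 16 records. Besides the Fos site they include a site 72.6 kb upstream of Irf2bp2, a corepressor gene (mm1295; 117 and 126), a site near Btg2 (mm1445; 114 and 118), a pair near Tob1 in the same record (mm1496; 112 and 114, and 105 and 121) and a site near the AP-1 subunit gene Fosb (mm567; 107 and 114). How fragments were picked for that collection was not examined, and the tissue in which each fragment was active is not used here.

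**Figure D2:**
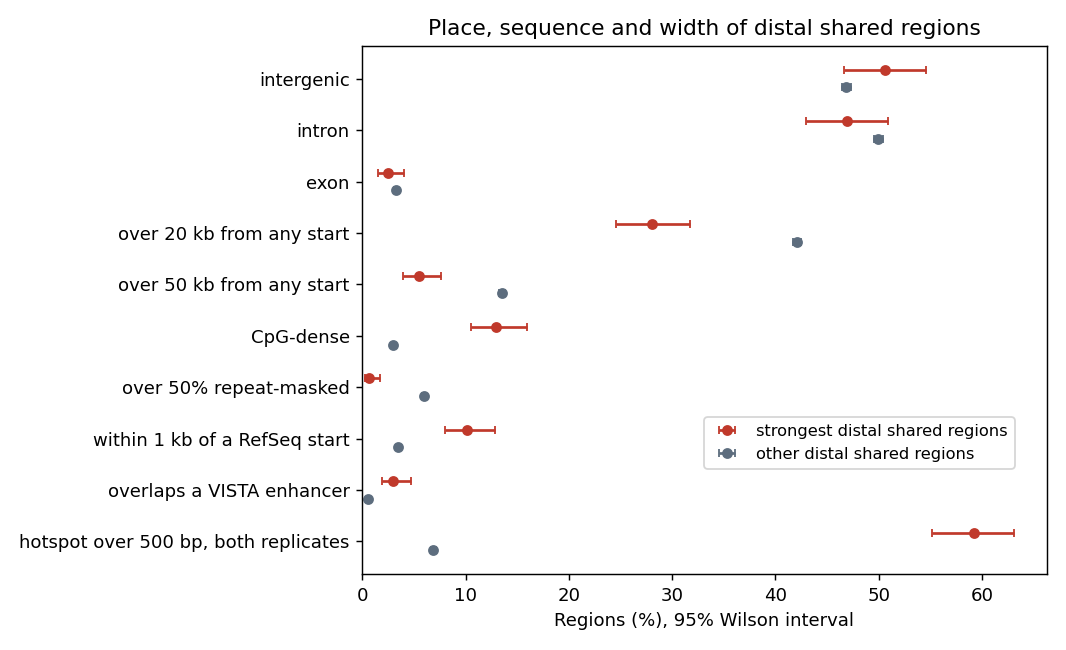
Share of regions (x axis, percent) with each feature of position, sequence, annotation or hotspot width, for the 603 strongest distal shared regions (red) and the 48903 other distal shared regions (grey), with 95% Wilson intervals for counting error. The red points lie right of the grey ones for CpG density, RefSeq starts, VISTA enhancers and hotspot width, and left of them for distances over 20 and 50 kb and for repeats.

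The site of CTCF was scarce in the strongest distal chromatin. Its string was in 8 of the 603 regions (1.33%, 95% Wilson interval 0.674 to 2.60) and in 4184 of the 48903 others (8.56%, 8.31 to 8.81). The difference was -7.23 points with an interval of -7.93 to -5.94. Windows of equal width 1 kb beside the 603 regions held the string in 0 of 1044 cases, which allows up to 0.367%, and the string read backwards was in none of the 603 regions and 0.00818% of the others. Equally strong regions near starts held it in 1.17%. A looser CTCF string gave 4.64 against 14.9%, and a stricter one 0.829 against 6.92%. Within 300 bp around the centre the shares were 2.49 and 8.75%. Regions strong in 1 replicate only held it in 0.739% (replicate 1) and 3.29% (replicate 2). The 8 regions lay nearest to Bcas1 (117 and 120), 1600002D24Rik (112 and 113), Pim3 (109 and 107), Stard10 (105 and 108), Gm10277 (100 and 112), Arhgef16 (105 and 106), 1600010M07Rik (101 and 106) and Rreb1 (99 and 106). In these 8 the match sat a median of 31.5 bp from the region centre, and in the others 15 bp.

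The CTCF share of distal regions was highest between the 50th and 75th percentiles of signal in replicate 1 and between the 75th and 90th in replicate 2. Signal chose the 603 regions, so these values are a description with no test. All 4192 distal regions with a CTCF match, the 603 regions included where they had one, had a median signal of 49 in replicate 1 and 64 in replicate 2, against 46 and 56 in the 45314 without a match. Their hotspots had median widths of 266 and 288 bp, against 254 and 271 bp. Along the signal range of distal regions in replicate 1 the CTCF share was 4.56% below the 25th percentile, 12.0% between the 50th and 75th percentiles, 2.53% between the 90th and 95th and 1.09% from the 95th upward. In replicate 2 it was 2.55, 11.4, 6.31 and 1.98% over the same bands. The top bands, of 1009 regions in replicate 1 and 907 in replicate 2, contain the 603 regions, so their low share restates the count already given. Neighbouring CTCF regions could be paired once among the 603, on chromosome 7, where 2 of them lay 8.85 Mb apart with their sites on the same strand.

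**Figure D3:**
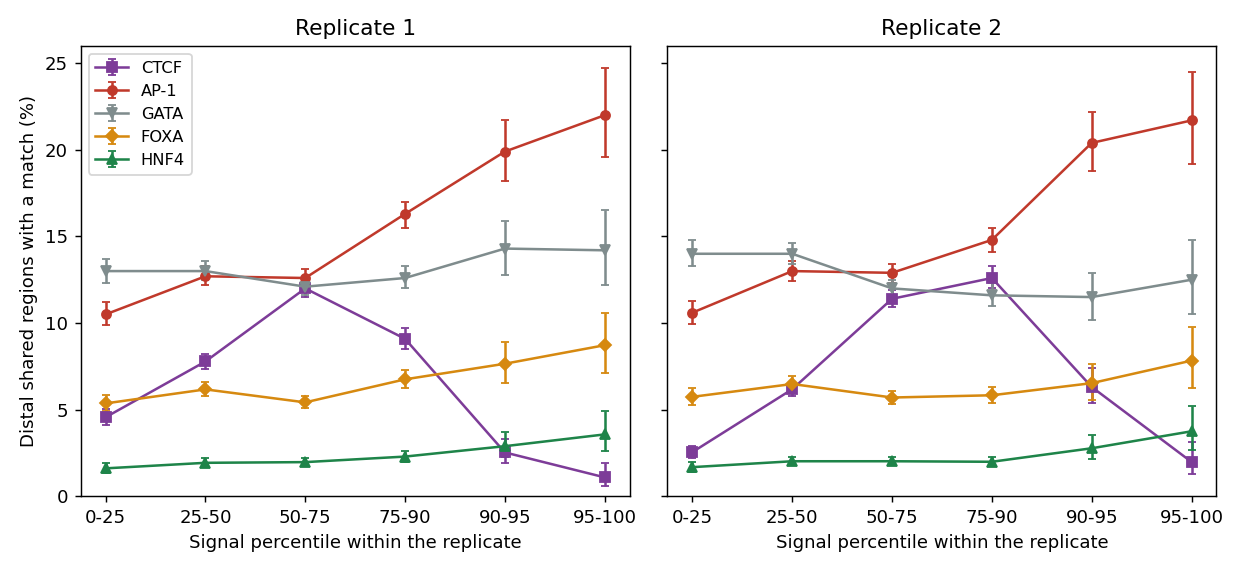
Share of distal shared regions with a match to the CTCF, AP-1, GATA, FOXA or HNF4 string (y axis, percent, 95% Wilson intervals) by percentile band of peak signal within each replicate (x axis, in order of signal). CTCF is highest at 12.0% in replicate 1 and 12.6% in replicate 2 and stands at 1.09 and 1.98% in the top band, which contains the 603 regions, while AP-1 stands there at 22.0 and 21.7%.

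AP-1 sites were the most frequent binding sites of the 603 regions. The AP-1 string TGACTCA, searched like all others on both strands, was in 138 regions (22.9%, 19.7 to 26.4) and in 13.3% of the other distal shared regions (13.0 to 13.6). This is a difference of 9.58 points (6.39 to 13.1). The string read backwards was in 4.31 and 3.83%, and windows beside the 603 regions held AP-1 in 2.30%. At least 2 AP-1 sites were in 2.99% of the 603 and 1.15% of the others. Regions strong in only 1 replicate had shares of 20.7% (replicate 1) and 19.4% (replicate 2), between the 603 and the rest. Equally strong regions near starts held AP-1 in 4.19%. The 3 highest AP-1 regions lay near Zfp869 (129 and 127), Bhlhe40 (120 and 124) and Miga1 (118 and 125). Regions of the 603 with and without AP-1 had the same median signals, 106 and 112, within a range that the thresholds had cut. Introns held 55.8% of those with AP-1 and 44.3% of those without.

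HNF4 and FOXA strings were also more frequent in the 603 regions than in the other distal sites, though less common than AP-1 strings. HNF4 strings (CAAAGTCCA or CAAAGGTCA), bound by a nuclear receptor of liver and gut epithelium, were in 26 regions (4.31%, 2.96 to 6.24) and 2.00% of the others, a difference of 2.32 points (0.957 to 4.25). Read backwards they were in 0 of the 603 regions and 0.517% of the others. The highest were the printed regions in introns near 9130204K15Rik (116 and 118) and Rap1gds1 (122 and 115) and one near Ypel2 (115 and 118). The forkhead string of FOXA, TGTTTAC, was in 54 regions (8.96%, 6.93 to 11.5) and 5.97% of the others, a difference of 2.98 points (0.944 to 5.54), while the same letters read backwards were in 2.49 and 3.56%. Its highest regions lay near Bcas1 (117 and 120), Nr4a1 (117 and 118) and Ypel2. HNF1 had 2 matches, near Dhrs7b (116 and 113) and in an intron 76.7 kb from Foxa2 (107 and 118). The share was 0.332% against 0.180%, with an interval of the difference that includes 0.

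GATA sites showed no difference that these counts could resolve. The string AGATAA was in 76 regions (12.6%, 10.2 to 15.5) and 12.7% of the others, a difference of -0.130 points with an interval of -2.56 to 2.77. Reversed it was in 4.64 and 7.42%. GATA regions near Bhlhe40 (120 and 124), Zfpm1, a cofactor of GATA proteins (115 and 123), and Cystm1 (110 and 126) were the highest. The epithelial Grainyhead-like string (GRHL, AACCNGTT) stood at 3.48 against 2.57% and the TEAD string ACATTCC, bound by effectors of the Hippo pathway, at 2.49 against 3.86%, both with intervals that include 0. The highest GRHL regions were near Myh9 (116 and 112), Skp1a (110 and 114) and D5Ertd579e (108 and 113), and the highest TEAD regions near 9830132P13Rik (111 and 124), AI481877 (117 and 118) and Plekhm3 (113 and 115). The homeodomain string TAATTA, by contrast, was in 1.49% against 3.42% (difference -1.92 points, -2.65 to -0.596). Its reversed string was at 2.65 against 3.60%.

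**Figure D4:**
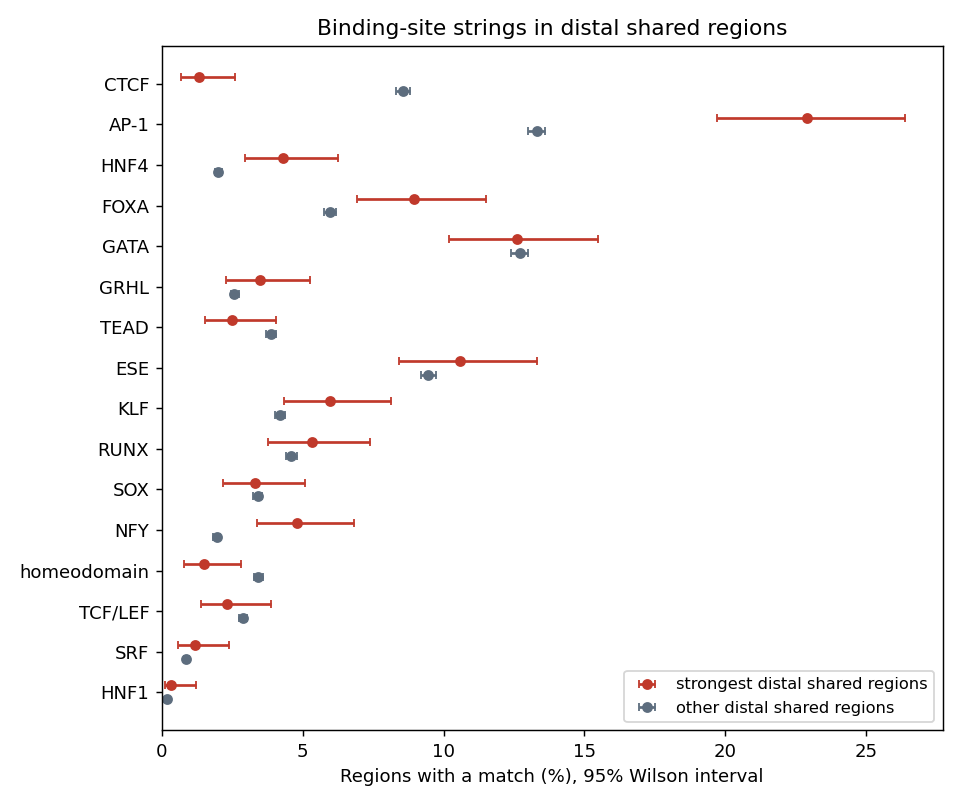
Share of regions with a match to 16 of the 36 strings (x axis, percent, 95% Wilson intervals), for the 603 strongest distal shared regions (red) and the 48903 other distal shared regions (grey). CTCF is the widest gap to the left, at 1.33 against 8.56%, and AP-1 the widest to the right, at 22.9 against 13.3%.

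Over all 36 strings, 11 were more frequent in the 603 regions by an interval above 0, 2 were less frequent and 23 had an interval that includes 0. Besides AP-1, HNF4 and FOXA the 11 are NFY, KLF, the E-box CACGTG, ETS, CREB and the rare RFX, CEBP and ZNF143 strings. KLF (GGGTGTGG) stood at 5.97 against 4.19%, but its reversed string was also higher in the 603 regions, at 2.65 against 1.54%. The E-box stood at 5.31 against 3.67%, but reversed at 4.15 against 4.07%. ETS, CREB, RFX, CEBP and ZNF143 strings were each in 7 regions or fewer. None of the strings matched in 154 of the 603 regions (25.5%, 22.2 to 29.2), against 32.5% of the others. Strings can overlap, and HNF1 sites can contain TAATTA. A match describes the sequence and does not show that a factor was bound, and the lack of an exact match does not show that a site is absent. Words of 8 bases, counted on both strands without any list, included parts of the AP-1, HNF4 and CTCF sites among others. Those with the largest excess were GTGACTCA (10.6 against 4.85%) and GTGAGTCA (9.95 against 4.24%), which contain the AP-1 string, followed by CCCTGCCC (6.97 against 2.51%), CTGAGTCA and the HNF4 word CAAAGTCC (5.47 against 2.28%). The 3 with the largest deficit are parts of the CTCF site, AGGTGGCA (0.995 against 3.35%), CCACTAGA (0.166 against 2.49%) and CCACCAGG (0.498 against 2.76%). Many other words of large excess were rich in G and C and not parts of the AP-1 or HNF4 strings. Examples are CTCCGCCC (4.15 against 0.994%) and GCCCCGCC (4.64 against 1.8%). The words of large deficit also include AAAAAAAA (0.995 against 3.24%). Ranking by the difference picked these words, so their shares are a description.

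The 78 CpG-dense regions differed in their strings from the other 525. NFY (CCAATCA) was in 15.4% of the CpG-dense regions, 12 of 78, and in 3.24% of the rest of the 603. In CpG-dense regions among the other distal sites NFY was in 1.63%. AP-1 was in 8.97% of the CpG-dense regions and 25% of the rest, FOXA in 3.85 and 9.71%, and HNF4 in 0 of 78 and 4.95%. The intervals overlap for FOXA (1.32 to 10.7 and 7.47 to 12.5) and HNF4 (0 to 4.69 and 3.4 to 7.16). The other distal sites were split in the same direction. AP-1 was in 6.26% of their CpG-dense regions and 13.5% of their rest, FOXA in 3.13 and 6.06%, and HNF4 in 0.612 and 2.04%. Over all 603 regions NFY stood at 4.81 against 1.94% in the other distal sites (difference 2.87 points, 1.42 to 4.88), and at 14.7% in equally strong regions near starts. Its matches lay a median of 21.5 bp from the region centre, against 38.5 bp in the others. Median signals were 107 and 113 in the CpG-dense regions and 106 and 112 in the rest, within a range that the thresholds had cut. Within 1 kb of a RefSeq start lay 21.8% of the CpG-dense regions and 8.38% of the rest. The highest CpG-dense region with NFY, near Mrps27, holds the string in 2 places. CTCF was in 2.56% of the CpG-dense regions and 1.14% of the rest.

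Most of the 603 regions stood alone. With links of at most 50 kb, 453 had no other of the 603 nearby, 120 were in 60 pairs, 18 in 6 groups of 3 and 12 in 3 groups of 4, so 24.9% had a neighbour among the 603 (21.6 to 28.5). Around each of them lay a median of 6 distal shared regions within 50 kb, against 4 around the others. One group of 4 flanks Btg2, an antiproliferative gene induced by DNA damage, at 8.77, 11.8 and 18.1 kb on one side and 14.0 kb on the other. Its regions had 98 and 111, 110 and 111, 114 and 118, and 99 and 115. A second group runs from near Upf2, a gene of nonsense-mediated RNA decay, to beyond Proser2, with 112 and 116, 109 and 118, 102 and 106, and 111 and 116. The third is in the non-coding gene Gm31718 near A630001O12Rik, with 102 and 113, 112 and 107, 105 and 109, and 119 and 120, 116 to 121 kb from the nearest protein-coding start, that of the mitochondrial import receptor gene Tomm20. A group of 3 near Zfp239 is a single open stretch: its regions lie 58 to 412 bp from the start of one RefSeq long non-coding RNA and share hotspots of 1802 and 1623 bp. By chromosome, the 603 regions were between 0.846% (chromosome 10) and 1.91% (chromosome 15) of the distal shared regions. They had 521 nearest protein-coding genes, of which 452 had 1 region and 9 had 3 or more.

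Genes of the first response to a stimulus recurred among the nearest genes. A list of 40 immediate early and stress response genes, put together after this had been seen and therefore given without a test, was nearest to 27 of the 603 regions (4.48%) and to 0.746% of the other distal sites. Of its 38 autosomal genes 12 (31.6%) had at least 1 of the regions in the gene or within 50 kb, against 4.97% of all 20780 protein-coding genes. Another distal site lay there for 94.7% of the 38 and 77.7% of all protein-coding genes. Beside Fos, whose second region had 106 and 107, the AP-1 subunit gene Jun had 2 regions 91.6 and 109 kb upstream (107 and 122; 114 and 108). Socs3, an inhibitor of cytokine signalling, had 3 (98 and 112, 119 and 119, 105 and 110), and so did Klf6 (106 and 106, 100 and 108, 99 and 107). The repressor gene Bhlhe40 had 3 (104 and 109, 109 and 111, 120 and 124), as did the antiproliferative gene Tob1, whose remaining region had 100 and 110. The mTORC1 inhibitor gene Ddit4 had 2 (104 and 112, 99 and 106), and Nr4a1, Ier2, Ier3, Gadd45b and Fosb had 1 each. Some of these regions lay close to a RefSeq long non-coding RNA start. The first Jun region was 204 bp, the second Fos region 240 bp and the first Klf6 region 696 bp from one.

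**Figure D5:**
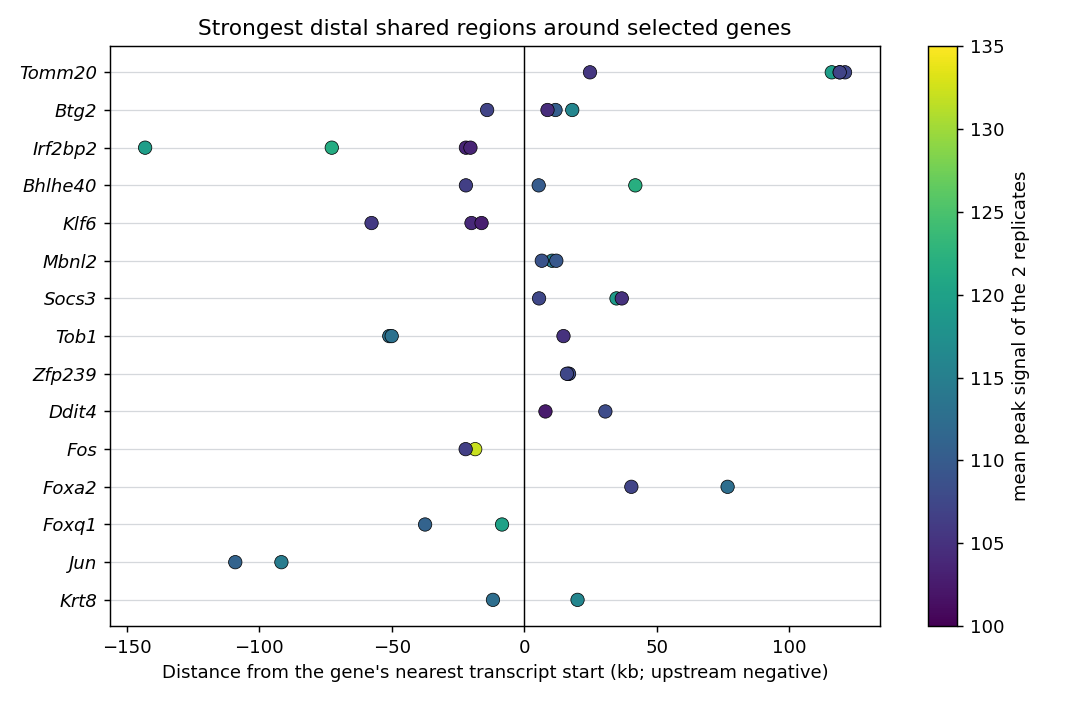
Position of the strongest distal shared regions around the genes that are nearest to 3 or more of them, and around genes of the lists with 2 (rows), by distance from the nearest transcript start of that gene (x axis, kb, upstream negative). Colour is the mean peak signal of both replicates. Regions of Btg2, Bhlhe40, Tob1 and Krt8 lie on both sides of the gene, and the Fos region at 18.5 kb upstream is the brightest.

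Epithelial genes were represented too. Of 20 genes of general epithelium 6 (30%) had at least 1 of the regions in the gene or within 50 kb, against 4.97% of all protein-coding genes. Another distal site lay there for 90% of the 20 genes and 77.7% of all protein-coding genes. A region can count for more than 1 gene in this way, so neighbouring genes are not separate cases. Counted by the nearest start, 6 regions (0.995%, 0.457 to 2.15) belonged to such a gene, against 0.172% of the other distal sites. They lay near the keratin genes Krt8 (109 and 123; 108 and 117) and Krt19 (101 and 112), the adhesion genes Epcam (103 and 115) and Cdh1 (103 and 109) and the tight junction gene Tjp1 (108 and 106). The second Krt8 region and the Krt19 region hold an AP-1 site, and the Cdh1 region, in an intron, holds a GRHL site. The Epcam region lay 2 bp and the second Krt8 region 948 bp from a RefSeq long non-coding RNA start. Of 20 gastric epithelial regulators 5 (25%) had a region in the gene or within 50 kb, against the same 4.97%, and 95% had another distal site there. Counted by the nearest start, 7 regions (1.16%, 0.563 to 2.38) against 0.554% of the other distal sites belonged to them. These were near the forkhead genes Foxa1 (105 and 109), Foxa2 (107 and 118; 104 and 110) and Foxq1 (110 and 112; 125 and 115), the secretory regulator gene Creb3l1 (116 and 120) and Bhlha15 (104 and 119), which encodes the secretory cell regulator Mist1. The share of gastric regulators among the nearest genes has an interval that overlaps the one of the other sites (0.492 to 0.624).

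For the remaining lists the counts were too small to set them apart from other genes. Counted by genes with a strongest region inside or within 50 kb, visceral smooth muscle and the brain list each had 2 of 19 (10.5%), endothelium and blood 1 of 18 (5.56%), and liver and pancreas 1 of 20 (5%), while gastric products, gut mesenchyme and enteric neurons and glia had 0. Of all protein-coding genes 4.97% had one. Gastric products, such as mucins, trefoil factors and proton pump subunits, were nearest to 0 of the 603 regions, which allows up to 0.633%, and to 0.0797% of the other distal sites, and 18 of the 19 autosomal product genes had another distal site in the gene or within 50 kb. Visceral smooth muscle was nearest to 1 region, 12.5 kb upstream of the smooth muscle myosin gene Myh11 (110 and 110), with an AP-1 site. Gut mesenchyme and signals had 1, 114 kb from the growth factor gene Fgf9 (100 and 107), and endothelium and blood 1, near Pecam1 (105 and 109). Enteric neurons and glia had 0, the brain list 1, near Mbp (112 and 113), and liver and pancreas 0. Counts of 0 and 1 allow shares of up to 0.633 and 0.933%, and the other distal sites stood at 0.108 to 0.290% for these 6 lists. Nearest genes are named by position, and no file here ties a region to the gene it acts on.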

How the data were processed

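DNase-seq peaks and hotspots of 2 replicates of newborn (day 0) mouse stomach on build mm10 were used. Per the labels the assembly is mm10, and the deposited file lists name the filtered alignments of each replicate as the source of its lists. How reads were aligned, and by which caller and cutoff peaks were called, is not given in the sources used here. Peak signal, as deposited by the authors, is a whole number with no stated scaling, used only within a list. The hotspot value is the deposited -log10 of a q value, at most 100. Read numbers are not given, so the depth is unknown, and weak sites may be missing for that reason.

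The peaks were read in Python 3.11.15 (pandas 2.3.3, numpy 2.4.6), sequence came from GRCm38.p6 with pysam 0.24.0, starts and introns from GENCODE M21, and further starts and enhancers from RefSeq. Overlaps were checked with bedtools 2.31.1. Regions on X and Y were left out. The strings, their reversed forms and the windows 1 kb away were searched on both strands. Shares carry 95% Wilson intervals and differences Newcombe intervals, for counting error only. With 1 group no conditions were compared, and no test was run, since regions are not replicates. The code was tested on simulated data.

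Nearest genes are by transcript start. The 10 gene lists were also read over each gene body extended by 50 kb. Regions named are the 10 highest by mean percentile, the 3 highest per main string, the 5 highest without a string, the 5 farthest from a start, the 3 largest groups, all near list genes and those just inside the thresholds. Those named by RefSeq start, VISTA record or number of regions per gene were added after their values were seen. The members, lists and strings were chosen with earlier results of these data known.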

Additional observations from a re-analysis of the deposited data

How the results depend on the processing

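Of 107 alternatives, 69 left the value within its interval (counts within 1.5 times) and 38 moved it. AP-1, HNF4 and FOXA stayed above the other distal sites, and CTCF below, at the 90th percentile and at all 3 other distances. The same held for starts of protein-coding genes only. At the 99th percentile CTCF, HNF4 and FOXA were each in 0 of 23 regions, with an interval of 0 to 14.3%. That interval holds the shares of the remaining distal regions, 8.47% for CTCF, 2.02% for HNF4 and 6.01% for FOXA. AP-1 was in 17.4% of the 23 (6.98 to 37.1), an interval that holds the 13.4% of the remaining distal regions. Counts at the 99th percentile therefore show no direction for these strings. The cause of the moves was not tested.

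With the 90th percentile there were 2203 regions, and 43.8% had a neighbour within 50 kb. With the 99th there were 23, with CTCF, HNF4 and FOXA in 0%, AP-1 in 17.4%, GATA in 4.35%, introns in 26.1%, a median distance of 10 kb and 0% with a neighbour. Beyond 1 kb there were 1021 regions (median 7.07 kb, 30.5% with a neighbour). Beyond 10 kb there were 393 (18.1 kb, 19.8%), with GATA in 15.5% (12.3 to 19.4), against 12.9% of the remaining distal regions. Beyond 20 kb there were 169 (30.9 kb, 14.2%), with CTCF in 0.592%, FOXA in 12.4%, GATA in 16% and introns in 41.4%. There the GATA interval, 11.2 to 22.2%, holds the 13.3% of the remaining distal regions. With starts of protein-coding genes only the median distance was 19.6 kb and the intron share 42.3%, and with introns of protein-coding genes only the share was 40.1%.

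A single replicate gave 908 to 1011 regions, with 29.4% having a neighbour in either. The looser CTCF string gave 4.64%. Searching 300 bp gave AP-1 in 29.2%, FOXA in 11.6% and GATA in 19.1%. A neighbour within 20 kb was found for 16.6% and within 100 kb for 30.2%. Leaving out CpG-dense regions or those near RefSeq starts, chosen after seeing the data, gave CTCF 1.14 and 1.29% and AP-1 25 and 23.1%. No paired analysis was possible because there is only 1 group.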
